A study of Mus musculus with 24 samples.

Results

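The comparison concerned open chromatin in 2 classes of cortical projection neuron of the mouse at postnatal day 7 (P7). Members were chosen by position. Every peak of the P7 peak list of Cux2-lineage callosal projection neurons (Cux2 CPNs) and of the P7 list of Tle4-lineage corticothalamic projection neurons (Tle4 CThPNs) on chromosomes 1 to 19 and X was taken, 44772 of the 292908 peaks in the 12 lists of the series. A peak that shared at least 1 bp with a peak of the other list was called shared. A peak with no such overlap was called Cux2-only or Tle4-only.

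The assay was ATAC-seq, in which the transposase Tn5 cuts accessible DNA and the cut sites are read by sequencing. The series held 24 samples, 2 replicates of each class at 6 ages from E18.5, before birth, to P48, and 4 of them formed the P7 pair. The Cux2 CPNs came from Cux2-CreERT2:Ai14 mice and the Tle4 CThPNs from Tle4-2A-CreERT2:Ai14 mice, with the strain labelled as C57BL/6, which the methods of the study describe as a mixed C57BL/6J background, and the somatosensory and motor cortex as tissue. In both lines the Cre recombinase is active only with tamoxifen and the Ai14 allele then turns on the red protein tdTomato. Males of each line had been mated to wild-type females, the pregnant females had received 4-hydroxytamoxifen at 1 mg per 10 g of body weight, and tdTomato-positive cells had been sorted. According to the methods of the study, each library was a pool of animals of both sexes from a pair of litters, and the Cux2 line also marks some interneurons. The study checked this by single-cell sequencing of both labelled populations and found interneuron markers in few cells. Its authors judged the effect on their analysis to be minimal. Each list had been called once over both replicates of its group, so the files gave no value and no sequencing depth per library, and no P7 difference could be set against a replicate spread. Wilson 95% intervals below cover counting error only.

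Callosal projection neurons of the upper layers send axons to the other hemisphere, and corticothalamic neurons of layer 6 send them to the thalamus. Cux1, Cux2 and Lhx2 encode transcription factors of upper-layer neurons, whereas Tle4, a co-repressor, and Tbr1, Sox5, Fezf2 and Foxp2 mark deep-layer neurons. Promoters of widely used genes are open in most cell types, while distal elements such as enhancers differ more between cell types.

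At P7 the Cux2 list held 29590 peaks over 19.2 Mb and the Tle4 list 15182 peaks over 12.1 Mb. Of the Cux2 list, 18798 peaks (63.5%, 95% interval 63.0 to 64.1) were Cux2-only. Of the Tle4 list, 4453 peaks (29.3%, 28.6 to 30.1) were Tle4-only. The shared peaks were 10792 in the Cux2 list and 10729 in the Tle4 list, the numbers differing because some peaks met more than 1 peak of the other list. The 2 lists therefore differed in length before any overlap was taken, and the effect of this on each count is given below.

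The sequences below show what the class-only distal peaks look like at their summits. Each is the 200 bp around a summit, read from NCBIM37 (mm9) on the plus strand, with matches to the 6 motifs named further on in capitals. The strongest distal peak of each class-only set is shown because it has no counterpart in the other list in spite of its height. The strongest ones with a Sox, ROR, cut homeodomain or NFI match are shown because these motifs are among the 6 at the ends of the ratio of shares between the class-only sets, and the strongest distal peaks assigned to Cux2, Tle4 and Fezf2 because these genes mark the classes.
Cux2-only, intron of Calcr (chr6:3650012-3650211): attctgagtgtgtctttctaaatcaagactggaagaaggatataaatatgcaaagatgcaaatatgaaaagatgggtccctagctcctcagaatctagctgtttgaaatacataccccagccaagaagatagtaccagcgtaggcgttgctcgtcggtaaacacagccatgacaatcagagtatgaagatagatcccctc
Tle4-only, intergenic, nearest gene Sypl (chr12:33688231-33688430): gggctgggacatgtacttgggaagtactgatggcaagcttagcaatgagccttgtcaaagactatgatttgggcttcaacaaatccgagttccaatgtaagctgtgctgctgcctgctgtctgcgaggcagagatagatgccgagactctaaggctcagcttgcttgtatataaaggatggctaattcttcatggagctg
Cux2-only with a Sox match, nearest gene D3Ertd751e (chr3:43050619-43050818): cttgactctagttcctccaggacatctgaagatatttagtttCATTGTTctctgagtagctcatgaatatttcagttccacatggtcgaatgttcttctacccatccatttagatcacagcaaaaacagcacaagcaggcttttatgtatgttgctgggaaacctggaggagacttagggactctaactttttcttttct
Cux2-only with a ROR match, nearest gene Arid1b (chr17:4726372-4726571): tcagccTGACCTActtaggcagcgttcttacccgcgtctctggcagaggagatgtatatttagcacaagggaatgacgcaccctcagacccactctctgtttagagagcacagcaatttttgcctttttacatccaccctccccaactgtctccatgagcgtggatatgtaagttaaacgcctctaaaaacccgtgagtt
Tle4-only with a cut homeodomain and a T-box match, nearest gene Cetn3 (chr13:82732948-82733147): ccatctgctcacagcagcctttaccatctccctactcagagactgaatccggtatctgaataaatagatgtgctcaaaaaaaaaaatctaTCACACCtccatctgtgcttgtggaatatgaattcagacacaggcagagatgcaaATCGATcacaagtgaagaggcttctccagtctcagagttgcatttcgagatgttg
Tle4-only with an NFI match, intron of Astn2 (chr4:65771943-65772142): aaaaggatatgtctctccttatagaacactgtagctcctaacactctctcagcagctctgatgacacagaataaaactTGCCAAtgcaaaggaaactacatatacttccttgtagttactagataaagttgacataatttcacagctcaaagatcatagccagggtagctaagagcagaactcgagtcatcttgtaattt
Tle4-only with 2 NFI matches, nearest gene 1190002N15Rik (chr9:93887129-93887328): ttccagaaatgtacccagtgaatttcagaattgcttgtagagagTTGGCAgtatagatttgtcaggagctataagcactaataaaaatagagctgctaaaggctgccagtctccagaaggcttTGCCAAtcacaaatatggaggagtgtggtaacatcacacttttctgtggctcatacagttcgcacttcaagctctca
Cux2-only, intron of Cux2 (chr5:122322285-122322484): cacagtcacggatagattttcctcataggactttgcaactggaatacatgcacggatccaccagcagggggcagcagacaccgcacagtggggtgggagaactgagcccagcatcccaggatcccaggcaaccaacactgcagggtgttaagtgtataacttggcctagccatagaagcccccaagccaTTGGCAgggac
Tle4-only, intergenic, nearest gene Tle4 (chr19:14496272-14496471): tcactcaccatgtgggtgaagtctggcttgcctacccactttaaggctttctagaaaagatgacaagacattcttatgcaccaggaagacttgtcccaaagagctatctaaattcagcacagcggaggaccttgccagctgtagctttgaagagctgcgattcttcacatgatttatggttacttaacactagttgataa
Tle4-only, nearest gene Fezf2 (chr14:13211581-13211780): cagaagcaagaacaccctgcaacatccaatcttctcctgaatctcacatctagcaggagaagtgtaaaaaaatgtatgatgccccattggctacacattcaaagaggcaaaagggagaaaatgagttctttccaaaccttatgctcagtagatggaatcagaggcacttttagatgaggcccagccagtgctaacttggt

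The strongest class-only peaks lay away from promoters with a single exception among 10. Peak strength is given as the −log10 p and the fold enrichment of the peak caller. The strongest Cux2-only peak, in an intron of Calcr (chr6:3649902-3650401), the calcitonin receptor gene, had a −log10 p of 67.1 and a fold enrichment of 19.9, and the nearest Tle4 peak was 189.7 kb away. The next lay in an intron of Pde4d (chr13:110068576-110069654; −log10 p of 65.0), which encodes a cAMP phosphodiesterase, and was found in the Cux2 lists of all 5 other ages and in no Tle4 list. The other 3, with −log10 p of 61.9 to 64.1, were intergenic and lay 82.4 kb from Ttc14 (chr3:33616096-33616996), 6.44 kb from Chchd3 (chr6:33016254-33017321) and 77.7 kb from St6gal2 (chr17:55506536-55507262). None of these 5 Cux2-only peaks was in a Tle4 list of any age.

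The strongest Tle4-only peak (chr12:33688004-33688719) lay 38.1 kb from Sypl, with a −log10 p of 84.0, and was in the Tle4 lists of 4 other ages and in no Cux2 list. The next, in an intron of Astn2 (chr4:65771602-65772579), a gene for a membrane protein of migrating neurons, had a fold enrichment of 16.4 and was in the same 4 lists. The exception was a promoter peak at Stam (chr2:14054115-14055154; −log10 p of 69.2), which was also in 3 Cux2 lists of other ages. The remaining 2 lay 154 kb from Trmt11 (chr10:30166007-30167036) and 35.3 kb from Mybpc1 (chr10:88102589-88103673), and each met a peak in 1 Cux2 list of another age. The ranks of these 5 peaks in the Tle4 list were 329, 510, 664, 750 and 949, so the strongest peaks of that list were shared.

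The shared peaks that ranked best in both lists were promoter peaks. They lay 273 bp from a transcription start site (TSS) of Fam59a (chr18:21458496-21459331), 149 bp from Rab5b (chr10:128133067-128133896), an endosomal GTPase gene, and 123 bp from Qdpr (chr5:45841027-45841986), which encodes dihydropteridine reductase. All 3 were in the lists of both classes at the 5 other ages. Over the 10792 shared peaks of the Cux2 list, each set against the strongest Tle4 peak it met, the fold enrichments followed each other with a Spearman rho of 0.699, a description across peaks that share libraries and base composition. The median log2 ratio of fold enrichment, Cux2 over Tle4, was -0.03 with quartiles of -0.24 and 0.16. In 7 pairs it was over 2-fold higher in the Cux2 list and in 25 pairs over 2-fold higher in the Tle4 list.

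Sharing followed peak strength in both lists. Each list was ordered by −log10 p and split into 10 parts of equal size. In the Cux2 list 92.6% of the strongest part was shared, 49.7% of the part ranked 3 and 11.5% of the weakest. In the Tle4 list the same parts were shared to 97.9%, 80.7% and 51.6%. Cux2-only peaks had a median −log10 p of 16.3 against 26.8 for the shared peaks of the same list, and Tle4-only peaks 23.9 against 29.5. Their median fold enrichments were 8.27 against 10.4 and 9.41 against 10.8. Class-only peaks were therefore the lower ones of their own list in both classes. In sorted bulk cells, a site open in more cells and a site more open in each cell cannot be told apart.

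**Figure D1:**
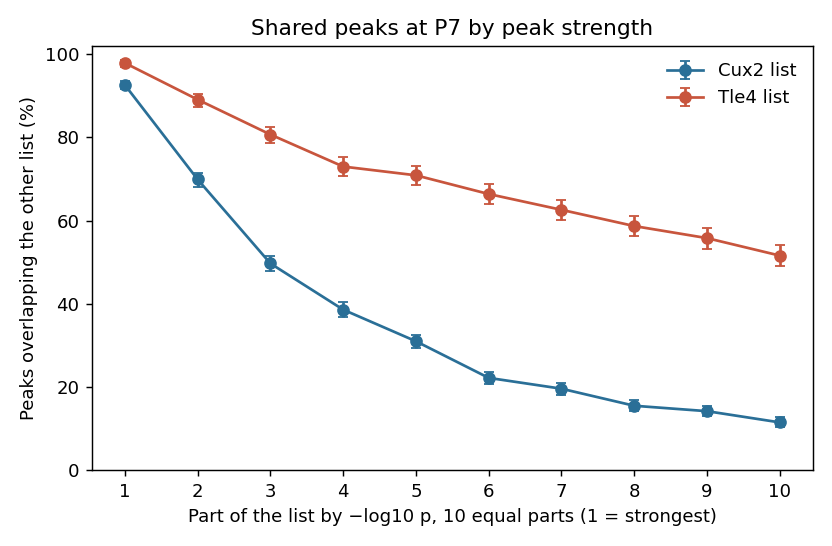
Percentage of P7 peaks that overlap a peak of the other class, for 10 equal parts of the Cux2 list (blue) and the Tle4 list (red) ordered by −log10 p, with Wilson 95% intervals. Both lines fall from the strongest part (92.6% and 97.9%) to the weakest (11.5% and 51.6%).

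The length of the lists set a large part of the Cux2-only count. No Tle4 peak had a −log10 p under 19.5, whereas 16188 Cux2 peaks did, and 82.3% of these were Cux2-only. They made up 13323 (70.9%) of all Cux2-only peaks. Among the 13402 Cux2 peaks at or above 19.5, 5475 (40.9%) were Cux2-only. With the Cux2 list cut to its 15182 strongest peaks, the length of the Tle4 list, 6748 peaks (44.4%) were Cux2-only and 6757 (44.5%) Tle4-only. Of those Tle4-only peaks, 2304 (34.1%) met a Cux2 peak that the cut had removed. At equal length the class-only counts have to be nearly equal, since nearly as many peaks are shared in each list (8434 and 8425). These counts therefore cannot show whether either class has more peaks of its own.

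Few peaks lay near the border of the rule. Of the shared Cux2 peaks, 1 overlapped its partner by less than 50 bp, and 11 Cux2-only and 5 Tle4-only peaks had a peak of the other list within 50 bp without touching it. The median distance to the nearest peak of the other list was 48316 bp for Cux2-only and 29591 bp for Tle4-only peaks, the lookup list being the longer one for the latter.

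Class-only peaks were less often at promoters than shared peaks, and the Tle4-only set held the fewest. A promoter peak was one within 1 kb of an annotated TSS. Promoters took 51.1% (50.2 to 52.1) of the shared peaks of the Cux2 list and 51.3% of those of the Tle4 list, 19.1% (18.6 to 19.7) of the Cux2-only and 6.42% (5.74 to 7.18) of the Tle4-only peaks. Intergenic peaks made up 43.8% of the Cux2-only and 56.9% of the Tle4-only set against 28.9% and 28.8% of the shared ones. Introns held 34.9% and 35.1% of the class-only sets and 18.7% of both shared sets, and exons held 2.19% or less of each set. The intervals of the Cux2-only and Tle4-only sets did not overlap for promoters or intergenic sequence, and overlapped for introns. The promoter difference varied with peak strength. In the strongest of the 10 parts of the Cux2 list, promoters took 82.0% of shared and 14.2% of Cux2-only peaks, and in the weakest 20.9% and 17.4%. In the Tle4 list the same parts had 88.5% and 9.38%, and 37.1% and 7.49%. The 9.38% rested on few peaks, since 2.11% of the 1519 peaks of that part were Tle4-only, and the part ranked 2 had 1.81%.

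**Figure D2:**
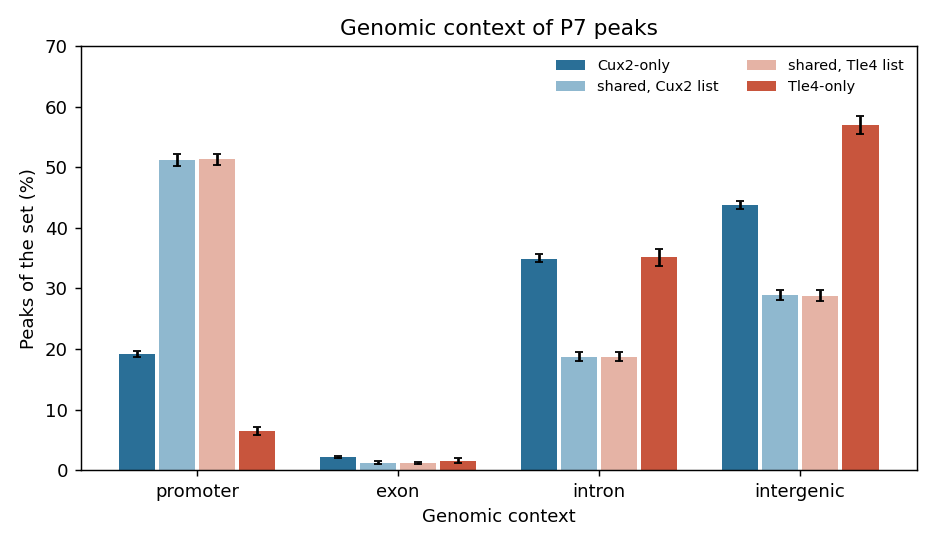
Percentage of P7 peaks at promoters (within 1 kb of a TSS), in exons, in introns and in intergenic sequence, for Cux2-only, shared and Tle4-only peaks, with Wilson 95% intervals. Promoters fall from 51.1% of shared peaks to 19.1% of Cux2-only and 6.42% of Tle4-only peaks, and intergenic sequence is highest in the Tle4-only set (56.9%).

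The promoter shares were compared over the 6 ages, each age giving 1 difference between sets, with an exact two-sided sign-flip permutation test and Benjamini-Hochberg adjustment over the 3 contrasts. The smallest p that 6 ages allow is 0.0312. The promoter share of Cux2-only peaks was lower than that of shared peaks by 32.0 percentage points at P7, and the mean difference over ages was -36.9 ± 6.53 percentage points (SD, n = 6 ages; negative at 6 of 6; exact p = 0.0312, adjusted p = 0.0469). For Tle4-only peaks the P7 difference was -44.8 and the mean -42.8 ± 9.28 percentage points (SD, n = 6 ages; negative at 6 of 6; exact p = 0.0312, adjusted p = 0.0469). Both class-only sets thus differed from shared peaks in the same direction at every age. Lists of neighbouring ages share many peaks, so the 6 ages are not fully independent repeats, and the sign-flip p-values here and below carry that limit.

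The promoter shares of the 2 class-only sets did not pass the test against each other. At P7 the Cux2-only share was 12.7 percentage points above the Tle4-only share, and the mean over ages was 5.91 ± 10.2 (SD, n = 6 ages; positive at 5 of 6; exact p = 0.250, adjusted p = 0.250). The age in the other direction was P21, at -13.8, where the Tle4-only set had 770 peaks. Without P21 the mean was 9.86 ± 3.59 percentage points (SD, n = 5 ages), with an exact permutation p of 0.0625, the smallest that 5 ages allow. At equal list length the promoter shares at P7 were 20.6% for Cux2-only and 13.1% for Tle4-only peaks, a difference of 7.50, and the mean over ages was -5.13 (exact permutation p = 0.750).

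Base composition and distance followed the promoter shares. The median GC content was 52.1% in shared peaks of the Cux2 list, 44.8% in Cux2-only and 42.5% in Tle4-only peaks. CpG-rich peaks, with a GC content over 50% and a ratio of observed to expected CpG over 0.6, were 41.2%, 12.5% and 2.67% of these sets. The median distance to the nearest TSS was 524 bp for shared, 17688 bp for Cux2-only and 36343 bp for Tle4-only peaks. Among distal peaks alone, those over 1 kb from any TSS, the medians were 25248 bp, 27344 bp and 42154 bp, and 15.8%, 18.3% and 26.3% lay over 100 kb away. Distal peaks of the Tle4 list were wider in both sets, with medians of 767 bp for Tle4-only against 553 bp for Cux2-only peaks and of 731 bp against 632 bp for the shared ones. Within the 200 bp at the summits of distal peaks the median GC content was 43.5% in both class-only sets and 45.5% in the shared set.

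Most class-only peaks of P7 were found again in the same class at another age. Of the Cux2-only peaks, 57.0% (56.3 to 57.7) met a peak of the Cux2 list of P3 and 22.5% (21.9 to 23.1) one of the Tle4 list of P3. Of the Tle4-only peaks, 73.6% (72.3 to 74.9) met a peak of the Tle4 list of P3 and 14.7% (13.7 to 15.8) one of the Cux2 list. Shared peaks met both P3 lists at about the same rate, 90.2% and 90.5%. Over all 5 other ages, 9571 Cux2-only peaks (50.9%) were in lists of their own class only, 5824 (31.0%) in lists of both classes, 221 (1.18%) in Tle4 lists only and 3182 (16.9%) in no other list. The matching Tle4-only counts were 1834 (41.2%), 1826 (41.0%), 290 (6.51%) and 503 (11.3%). In all, 565 Cux2-only (3.01%) and 34 Tle4-only peaks (0.764%) were in every list of their own class and in none of the other class. The Tle4 list was the shorter one at every age, which limits the Tle4-only number, and these numbers were not taken at equal length.

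The Tle4-only peaks were not retained in the later Tle4 lists to the same extent. The Tle4 list of E18.5 held 53.2% of them, that of P1 63.0% and that of P3 73.6%, against 9.18% in that of P21 and 18.8% in that of P48. In the Cux2 lists of the same 5 ages, in order, the share was 20.3%, 10.3%, 14.7%, 25.7% and 29.7%, so that from P21 on they were more often in the Cux2 list. The lists searched differ in length from 6538 peaks (Tle4, P21) to 45642 (Cux2, P48). With every list cut to 6538 peaks, the Tle4-only peaks were present in 17.8%, 18.9%, 16.8%, 9.18% and 9.99% of cases in the Tle4 lists and in 1.08%, 0.539%, 0.472%, 4.85% and 4.36% in the Cux2 lists. The order of the classes at P21 and P48 thus turned around with the length of the lists. For Cux2-only peaks the Cux2 lists held the larger share at all 5 ages at both lengths, from 5.25% to 7.02% against 1.98% to 3.18% after the cut. A fall was not particular to Tle4-only peaks. Shared peaks of the Tle4 list were in 90.5% of cases in the Tle4 list of P3, 39.7% at P21 and 52.9% at P48. After the cut these shares were 49.5%, 39.7% and 36.7%.

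**Figure D3:**
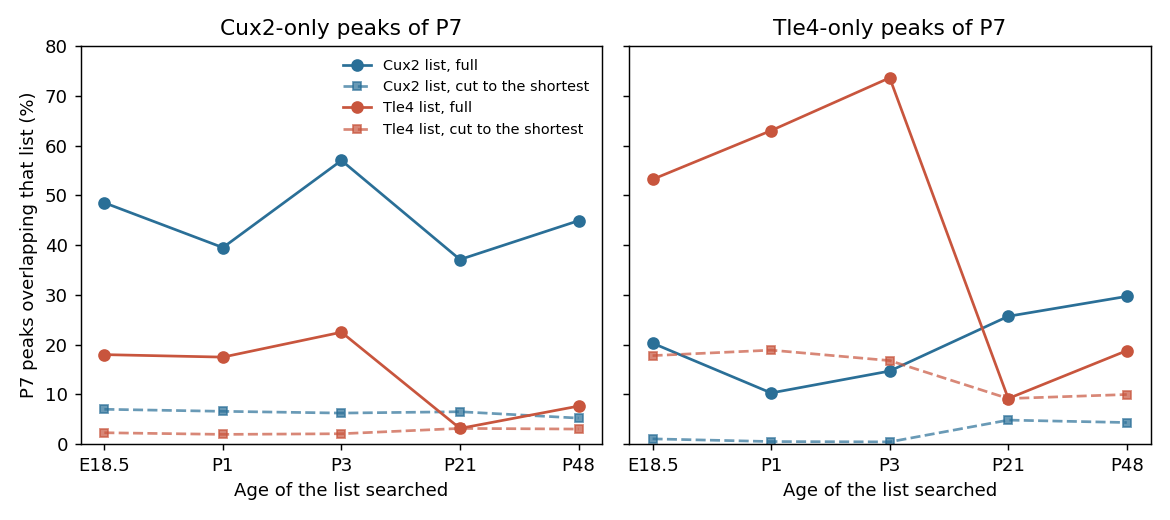
Percentage of the Cux2-only (left) and Tle4-only (right) peaks of P7 that overlap the Cux2 (blue) or Tle4 (red) list of each other age, with the full lists (solid) and with every list cut to 6538 peaks (dashed). In the right panel the red line falls from 73.6% at P3 to 9.18% at P21 and crosses the blue one, and the dashed lines do not cross.

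Promoter and distal Cux2-only peaks differed in how often the Tle4 class had them at P3. Of the 3593 Cux2-only promoter peaks, 57.9% (56.2 to 59.5) met a Tle4 peak at P3, and of the 15205 distal ones 14.1% (13.6 to 14.7) did. In the Cux2 list of P3 the shares were 76.6% and 52.4%. The strongest Cux2-only promoter peaks, listed here after their values had been seen, were at C030019I05Rik within Cyfip2, at Mfsd8, a lysosomal transporter gene, at Mark2, a microtubule-affinity kinase gene, and at Fchsd2, with −log10 p of 60.1, 53.2, 51.2 and 50.3. The last 3 were in the Tle4 lists of E18.5, P1 and P3. The 4 strongest Tle4-only promoter peaks were those at Stam, within Golga1, within Dnajc5b and at Hccs, and the last of these, with a −log10 p of 47.9, was in the Cux2 lists of all 5 other ages.

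Each peak was assigned to the protein-coding gene with the nearest TSS if that was within 100 kb, which held for 14299 Cux2-only, 2720 Tle4-only and 9435 shared peaks of the Cux2 list. Of 22208 protein-coding genes, 8435 (38.0%) had at least 1 Cux2-only peak, 2192 (9.87%) at least 1 Tle4-only peak and 7451 (33.6%) at least 1 shared peak. Both kinds of class-only peak were assigned to 1496 genes, 68.2% of the genes with Tle4-only peaks and 17.7% of those with Cux2-only peaks. At equal list length 18.1% of genes had a Cux2-only and 15.4% a Tle4-only peak. A promoter peak was present at 40.5% of genes in the Cux2 list and at 27.7% in the Tle4 list, at 5936 genes in both, at 3058 in the Cux2 list alone and at 209 in the Tle4 list alone. These percentages are the background for the counts of named genes that follow, which are descriptions without a test.

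The 10 genes with most Cux2-only peaks were 301 to 1945 kb long, against a median of 15.5 kb for all protein-coding genes. Pde4d had 24, Dlg2, which encodes a postsynaptic scaffold, 16, and Kcnip4, a potassium channel subunit gene, and Odz3, a teneurin gene, 14 each. Pam, Fam189a1 and Magi2, the last a synaptic scaffold gene, had 13 each, Phactr1 12, and Elmo1 and Snd1 11 each. The genes with most Tle4-only peaks were Etl4 with 11, Arhgap15, which encodes a GTPase-activating protein for Rac, and Tnr with 6 each, and Cntn4, Nrxn3, Pde4d and Odz4 with 5 each. Gm5407, Syt1 and Dlg2 had 4 each. Cntn4 and Nrxn3 encode cell adhesion proteins of neurons and Syt1 the calcium sensor of vesicle release. Pde4d and Dlg2 were among the first 10 in both sets. Their lengths are 1504 and 1945 kb, and 7 and 5 of their Cux2 peaks were shared.

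Tnr, which encodes the matrix protein tenascin-R, was the 1 gene of these with no Cux2-only peak. Its 6 Tle4-only peaks lay from 49.0 kb outside the gene to 52.0 kb inside it and had −log10 p of 20.0 to 30.5. It also had 2 shared peaks in its introns. At Etl4 the 11 Tle4-only peaks had −log10 p of 19.6 to 44.6 and 7 Cux2-only peaks 13.2 to 21.4. The Tle4-only peak at an Etl4 promoter (chr2:19830995-19831943; −log10 p of 21.7) was in the Cux2 lists of all 5 other ages.

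The class genes themselves carried peaks of their own class. At Cux2 there were 4 Cux2-only peaks and no Tle4 peak. A pair lay in introns of Cux2 (chr5:122322252-122322617 and chr5:122354677-122355164) and the others 1.58 kb (chr5:122501429-122501885) and 19.5 kb (chr5:122519215-122519754) upstream of its TSS, the nearer of them in an intron of the overlapping annotated transcript Gm15637, with −log10 p of 18.9, 18.6, 17.2 and 13.1 and fold enrichments of 10.3, 9.59, 6.15 and 6.60. None was in a Tle4 list of another age. All 4 were under the 19.5 that no Tle4 peak went below, and the strongest, printed above, holds an NFI match. At Tle4 there were 3 Tle4-only peaks, all intergenic on the 3′ side of the gene (chr19:14429309-14430273, chr19:14480759-14482264 and chr19:14495752-14496788), with −log10 p of 24.2, 36.6 and 47.7. Of these 3, the strongest was in 4 other Tle4 lists and in no Cux2 list. The promoter of Tle4 had a shared peak, with a −log10 p of 77.6 in the Cux2 list and 53.1 in the Tle4 list. The Tle4-only peaks lay 31.8 to 98.4 kb from the nearest annotated TSS of the gene.

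Of 17 genes of callosal and upper-layer neurons, 15 had a Cux2-only peak (88.2%, against 38.0% of all genes) and 7 a Tle4-only peak (41.2%, against 9.87%). Limch1, which encodes a LIM and calponin-homology protein, had 10 Cux2-only peaks, of which 3 were at promoters, and 4 shared peaks of each list. Cux1 had 5 Cux2-only peaks in its introns with −log10 p of 12.7 to 24.2, and Lhx2 and Inhba, a gene for an activin subunit, 3 each, with no Tle4 peak of P7 at any of these 3 genes. The strongest Cux1 peak and the weakest of the Lhx2 peaks were in the Tle4 lists of E18.5, P1 and P3. The other Cux2-only peaks of these 3 genes were in no Tle4 list. Pvrl3, a nectin gene, had 3 peaks of each class-only set. The number of genes with more Cux2-only than Tle4-only peaks was 13, and 2, Pou3f3 and Rorb, had more Tle4-only ones. At equal list length the counts were 8 and 8 of 17 (47.1% each, against 18.1% and 15.4% of all genes). The difference between the classes in this group thus rested on Cux2 peaks beyond the length of the Tle4 list.

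Of 13 genes of corticothalamic neurons, 8 had a Cux2-only and 7 a Tle4-only peak (61.5% and 53.8%, against 38.0% and 9.87% of all genes). At equal length the counts were 3 and 8 (23.1% and 61.5%, against 18.1% and 15.4%). The genes with most class-only peaks were Sox5 with 4 Cux2-only and 4 Tle4-only peaks, Fezf2 with 3 and 4, Foxp2 with 3 and 2, and Foxp1 with 5 and 0. At Fezf2 the Tle4-only peaks lay 20.8 to 91.2 kb from its TSS, and the 2 strongest (chr14:13211076-13212223 and chr14:13269297-13270817) had −log10 p of 41.3 and 37.3. The 3 Cux2-only peaks at this gene had 12.9 to 16.2. At Sox5 the 4 Tle4-only peaks, all in introns, had −log10 p of 19.6 to 33.5 and the 4 Cux2-only ones 17.5 to 20.5. Tbr1 had 1 shared peak of each list and no class-only peak. Crym and Hs3st4 had no peak of either list.

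**Figure D4:**
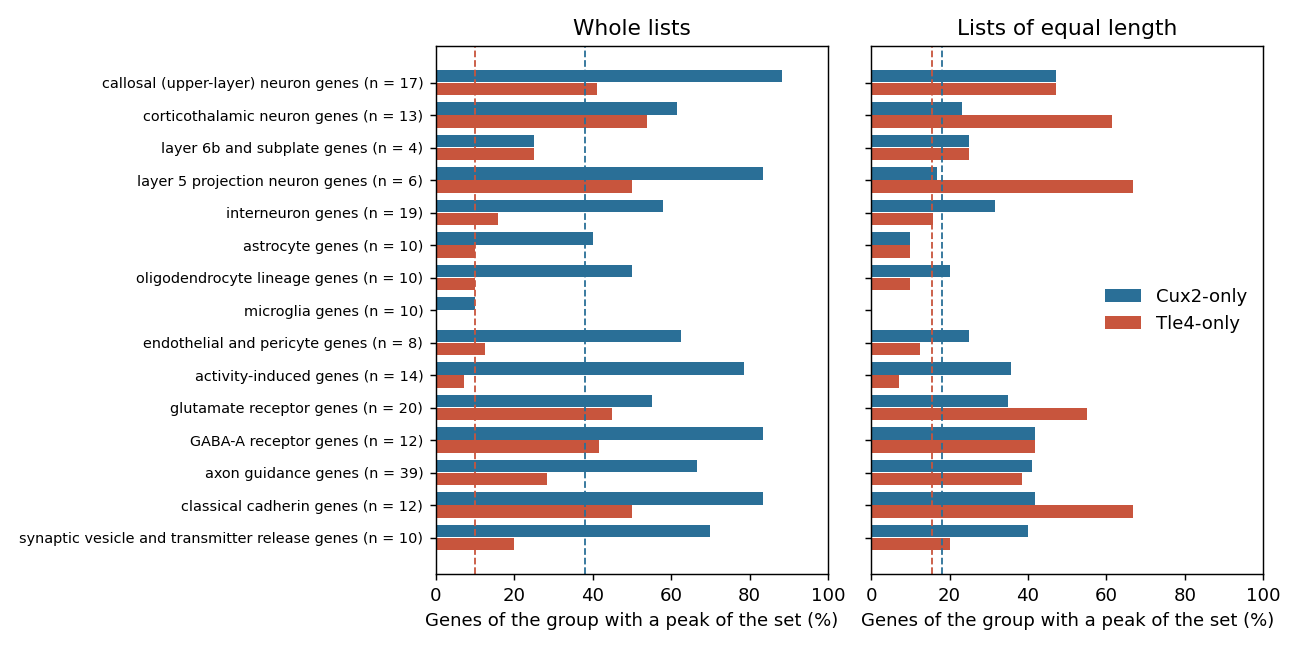
Percentage of the genes of each of 15 groups with at least 1 Cux2-only (blue) or Tle4-only (red) peak at P7, with the whole lists (left) and with lists of equal length (right). Dashed lines mark the percentage of all 22208 protein-coding genes, 38.0% and 9.87% on the left and 18.1% and 15.4% on the right, and for corticothalamic genes the longer bar changes from blue to red.

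Activity-induced genes, the immediate early genes and their targets that neurons transcribe after depolarization, differed most of the 15 groups between the class-only sets of the whole lists. Of 14, 11 had a Cux2-only peak (78.6%, against 38.0% of all genes), 1 a Tle4-only peak (7.14%, against 9.87%) and 12 a shared peak (85.7%, against 33.6%). At equal length the class-only counts were 5 and 1 (35.7% and 7.14%, against 18.1% and 15.4%). A promoter peak was present at 13 of the 14 in the Cux2 list and at 10 in the Tle4 list. Bdnf, a neurotrophin gene, had 5 Cux2-only peaks and 1 Tle4-only peak. A pair of its Cux2-only peaks lay at promoters (chr2:109518141-109518604 and chr2:109532184-109532897; −log10 p of 19.3 and 24.4), and both were in the Cux2 lists of all 5 other ages. Fos and Nr4a3 had 3 Cux2-only peaks each. Those of Fos lay within 13.0 kb of it, beside 3 shared peaks that included its promoter, and each of the 3 met a Tle4 peak at 2 or more other ages. Many Cux2-only peaks at other genes of the group also met a Tle4 peak at another age. Others, among them the stronger Bdnf promoter peak, met none. The median length of this group's genes is 6.17 kb.

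Receptor, adhesion and guidance genes carried both kinds of peak. Of 20 glutamate receptor genes, 11 had a Cux2-only and 9 a Tle4-only peak (55.0% and 45.0%, against 38.0% and 9.87% of all genes). At equal length 7 and 11 had them (35.0% and 55.0%, against 18.1% and 15.4%). Gria3 had 4 Cux2-only peaks and 1 Tle4-only peak, Grm3 3 and 1 beside 5 shared ones, and Gria1 and Grm7 had 2 Tle4-only peaks each and no Cux2-only one. Of 12 GABA-A receptor genes, 10 and 5 had them (83.3% and 41.7%), 5 and 5 at equal length (41.7% each), with 5 Cux2-only peaks and 1 Tle4-only peak at Gabra2. Of 39 axon guidance genes, 26 and 11 had them (66.7% and 28.2%), 16 and 15 at equal length (41.0% and 38.5%). Slit3, a gene for a repellent ligand, had 5 Cux2-only peaks and 1 Tle4-only peak, Plxna2, a semaphorin receptor gene, 3 of each, Efna5, an ephrin gene, 4 and 2, and Robo2, a Slit receptor gene, 2 and 3. Of 12 classical cadherin genes, 10 and 6 had them (83.3% and 50.0%), 5 and 8 at equal length (41.7% and 66.7%). Cdh18 had 6 Cux2-only and 1 Tle4-only peak and Cdh13 3 and 2. These are long genes, with group medians of 349, 119, 156 and 224 kb, and length was not taken into account in the background.

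Synaptic vesicle and transmitter release genes and genes of other layers gave smaller counts. Of 10 vesicle genes, 7 had a Cux2-only and 2 a Tle4-only peak, 4 and 2 at equal length, and Syt1 had 2 Cux2-only and 4 Tle4-only peaks. Of 6 layer 5 genes, 5 and 3 had them, 1 and 4 at equal length, and Ldb2 had 2 of each. Of 4 genes of layer 6b and subplate, 1 had both kinds, Nr4a2, with 2 Cux2-only and 3 Tle4-only peaks.

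Markers of cells outside the 2 classes were counted in the same way. Of 19 interneuron genes, 11 had a Cux2-only peak (57.9%, against 38.0% of all genes) and 3 a Tle4-only peak (15.8%, against 9.87%). At equal length 6 and 3 had them (31.6% and 15.8%, against 18.1% and 15.4%). Reln had 3 Cux2-only peaks and Npy 2, while Gad2, Slc32a1, Dlx1, Dlx2, Lhx6 and Sst had no peak of either list. Of 10 astrocyte genes, 4 had a Cux2-only peak, 8 at Slc1a3, the glial glutamate transporter gene, and 3 at Gja1, and 1 had a Tle4-only peak, 1 and 1 at equal length. The strongest at Slc1a3 (chr15:8584340-8585049) had a −log10 p of 35.2. Sox9, S100b, Aldoc and Fgfr3 had no peak. Cux2-only peaks were present at 5 of 10 oligodendrocyte, 1 of 10 microglia and 5 of 8 endothelial and pericyte genes (50.0%, 10.0% and 62.5%, against 38.0% of all genes). Tle4-only peaks were present at 1, 0 and 1 of them (10.0%, 0% and 12.5%, against 9.87%). At equal length these were 2, 0 and 2 genes with Cux2-only peaks (20.0%, 0% and 25.0%, against 18.1%). For Tle4-only peaks they were 1, 0 and 1 (10.0%, 0% and 12.5%, against 15.4%). Olig1, Olig2, Sox10, Cldn5, Pecam1 and Cx3cr1 had no peak of either list. The part of such cells in the Cux2-only set was not tested.

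Short motifs were counted in the 200 bp around the summits of distal peaks, on both strands, in 15205 Cux2-only, 4167 Tle4-only and 5274 shared peaks. The NFI motif, the letters TTGGCA that nuclear factor I proteins bind, was in 26.8% (25.5 to 28.1) of Tle4-only windows against 13.7% (13.2 to 14.3) of Cux2-only and 15.0% (14.0 to 15.9) of shared ones, and in 16.1% of the 29874 distal windows of both lists. At least 2 matches were found in 3.65%, 0.973% and 1.44% of the windows. The share was 28.6% in the stronger and 25.0% in the weaker Tle4-only peaks when these were split at the middle rank. It was 32.1% (30.0 to 34.2) in Tle4-only peaks present in the Tle4 lists of E18.5, P1 and P3 and 20.5% in those in none of the 3, and these intervals did not overlap. The same split gave 16.3% (15.2 to 17.6) and 12.0% (11.2 to 12.9) in Cux2-only peaks with the Cux2 lists of these ages, also without overlap. The palindrome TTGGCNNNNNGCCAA was in 1 Tle4-only, 1 Cux2-only and 0 shared windows, too few to compare.

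The NFI difference had the same direction at every age. The Tle4-only and Cux2-only shares were 32.2% and 19.2% at E18.5, 27.4% and 15.1% at P1, 27.1% and 14.3% at P3, 29.4% and 14.8% at P21, and 30.1% and 15.9% at P48. The mean difference, Cux2-only minus Tle4-only, was -13.3 ± 0.882 percentage points (SD, n = 6 ages; negative at 6 of 6; exact sign-flip p = 0.0312, adjusted p = 0.0820 over 21 motifs). This test was added after the shares had been seen, and with 21 motifs no adjusted p passed 0.05. Lists of different ages share many peaks. At P7 the shares were 24.5% and 13.9% at equal list length and 27.8% and 14.3% among windows with a GC content of 40 to 50%.

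The other motifs with the lowest ratio of Cux2-only to Tle4-only share were the cut homeodomain motif ATCGAT, in 0.309% and 0.600%, and the T-box motif GGTGTGA, in 2.06% and 3.91%. The P7 shares of the cut motif rested on 47 Cux2-only and 25 Tle4-only windows, and their intervals (0.233 to 0.411 and 0.407 to 0.884) overlapped. The cut motif, which Cux proteins bind, was higher in the Tle4-only set at 6 of 6 ages and the T-box motif, bound by factors such as Tbr1, at 4 of 6. The motifs with the highest ratio were NRF1 (GCGCATGC), in 0.546% and 0.0720%, Sox (AACAATG), in 3.02% (2.76 to 3.30) and 0.768% (0.545 to 1.08), and ROR (TAGGTCA), in 1.49% and 0.408%. The Tle4-only NRF1 share rested on 3 windows. Sox was higher in the Cux2-only set at 6 of 6 ages, and NRF1 and ROR at 5 of 6. Shared windows held Sox in 2.12% and ROR in 0.626%.

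**Figure D5:**
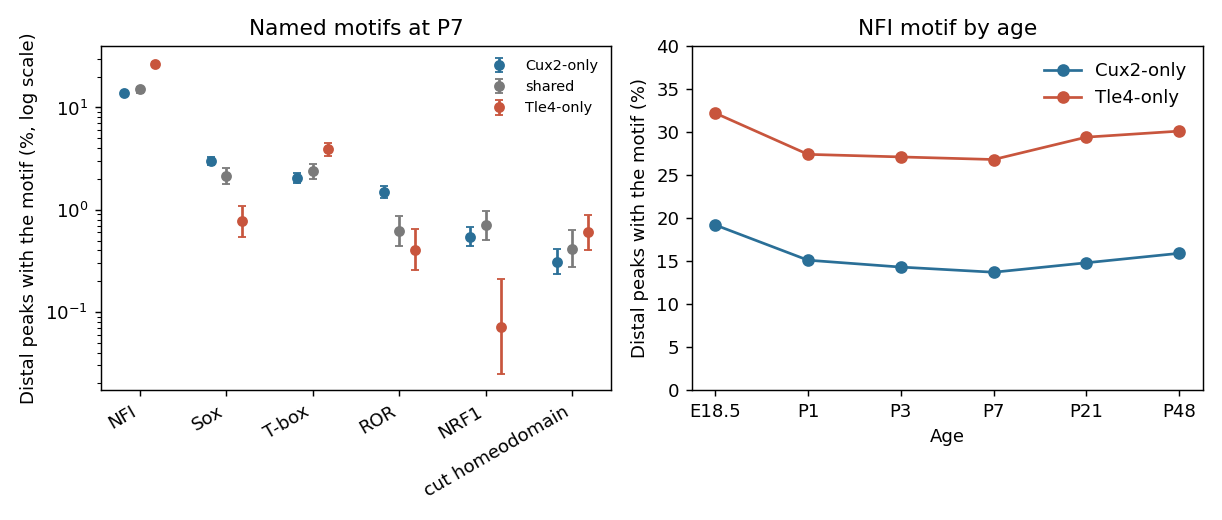
Left, percentage of distal P7 peaks with each of 6 motifs in the 200 bp around the summit for Cux2-only (blue), shared (grey) and Tle4-only (red) peaks, with Wilson 95% intervals on a log scale. Right, the NFI share of Cux2-only and Tle4-only distal peaks at each age, with the Tle4-only line (26.8% to 32.2%) above the Cux2-only line (13.7% to 19.2%) throughout.

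Of the other 15 motifs, 11 had a ratio above 1 and were higher in Cux2-only windows, among them ETS (CCGGAAG), EGR (GTGGGCG), the CTCF core (AGGGGGC), the cAMP response element (TGACGTCA), the POU octamer (ATGCAAAT), the homeodomain motif TAATTA, SP and KLF (GGGCGG) and forkhead (TGTTTAC), with ratios of 2.21 to 2.78. RFX (GTTGCCA), the symmetric E-box CAGCTG and the neurogenic E-box CAGATG had 1.38, 1.19 and 1.06, and AP-1 (TGANTCA) was in 7.06% of both sets. The nuclear receptor motif AAAGGTCA, TEAD (GGAATG) and MEF2 (TATTTTTA) had ratios of 0.828 to 0.891. RFX and NFI share the letters TGCCA, and ROR and the nuclear receptor motif share GGTCA, so their matches can overlap. Motif letters say nothing of which factor was bound.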

How the data were processed

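ATAC-seq peak lists were used, 1 for each of the 12 groups, each made over 2 replicates. According to the methods of the study and the processing notes of the submitters, reads were aligned to mm9 with Bowtie2, duplicates were marked with Picard, and peaks were called with MACS2 and kept by reproducibility between replicates (IDR). A shift of reads for Tn5 is not given in the sources used here. The peak names of the Cux2 list carry a version mark that the Tle4 names lack, and whether both lists came from 1 run is not known. Each deposited list gives a score, a fold enrichment and a −log10 p from the authors' peak caller. The fold enrichment is a ratio over the caller's local background, the deposited −log10 p ranks the peaks, and the deposited score column was not used. The methods of the study give 1 approximate depth for all libraries, and the files hold no depth or value per library, so replicates could not be compared, and peaks absent from a list may lie under its threshold.

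Peaks on chromosomes 1 to 19 and X were used. Peak sets were compared by 1 bp overlap in Python 3.11.15 (numpy 2.4.6, pandas 2.3.3, scipy 1.17.1, pysam 0.24.0, samtools 1.23.1). Genes and TSSs came from GENCODE M1 on NCBIM37, and no peak passed a chromosome end of that build. Promoters were within 1 kb of a TSS, then exons, introns and intergenic sequence were assigned in this order from the summit. The 21 motifs were matched exactly. Promoter shares were tested by exact sign-flip permutation over 6 ages, and the code was tested on simulated lists. Alternatives were lists of equal length, a common −log10 p, stronger peaks only, other overlap rules, other promoter distances and annotations, another summit window and, added after the data were seen, a GC window, a shorter cut, lookup lists of equal length and the omission of P21.

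The text names, for each class-only set, the 5 strongest peaks and the 10 protein-coding genes with most peaks, 3 shared peaks by mean rank, the genes Cux2 and Tle4, up to 4 genes per group with most class-only peaks (or tied with the last of them), and the 3 motifs at each end of the ratio of shares. Genes without a class-only peak, Lhx2, Inhba, Pou3f3, Rorb and the 4 strongest promoter peaks of each set were added after their values were seen. A gene that this rule would name is not reported here. The comparison and the gene and motif lists were chosen with earlier results of these data known.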

Additional observations from a re-analysis of the deposited data

Results flagged for a closer look

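Peaks outside chromosomes 1 to 19 and X entered no comparison and were looked at for signal. The P7 list of Cux2 CPNs held 6 peaks on chromosome Y and 5 on the mitochondrial genome, and the P7 list of Tle4 CThPNs held 4 peaks on chromosome Y. They were flagged because they are above 3, the upper limit set for a count of 0. The P7 list of Tle4 CThPNs also held 3 peaks on the mitochondrial genome, which did not pass this limit. The limit was not made for called peaks, so it shows neither an absence of signal nor a difference between the lists. There is no control sample, and the libraries were pools of animals of both sexes according to the methods of the study.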

How the results depend on the processing

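No paired analysis was possible because each list was called over both replicates of its group and gives no value per replicate, and no replicate could be left out for the same reason. The lower promoter shares of both class-only sets than of shared peaks kept their direction and their side of the threshold in all alternatives tried. The difference between the Cux2-only and Tle4-only promoter shares, 12.7 percentage points at P7, was 7.50 at equal list length and 6.73 at a common −log10 p, and under both the mean over ages turned from 5.91 to -5.13 (exact permutation p = 0.750) and -2.20 (exact permutation p = 0.875). The Cux2-only and Tle4-only peak numbers, 18798 and 4453, were 6748 and 6757 at equal length, and 5475 and 7260 at a common −log10 p. With the stronger 50% of each list alone they were 9275 and 2082, with 5520 shared peaks in the Cux2 list and 5509 in the Tle4 list. With the stronger 50% looked up in the whole other list they were 6457 and 1343, with 6248 shared Tle4 peaks. With 7591 peaks of each list looked up in lists of equal length they were 1872 and 2047, with 5719 and 5544 shared peaks. All these settings use fewer peaks by construction. With both lists cut to equal length, the class-only numbers also have to nearly match by construction. Other overlap rules left the 4 numbers within 1.5 times. The 6 named motifs kept their direction in all settings. The depth of each library is not in the files, so a peak missing from the shorter list cannot be told apart from one under its threshold.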
